A study of Mus musculus with 14 samples.

Results

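The 35 genes described here mark T cells or act as their checkpoint and costimulatory receptors. They were taken by symbol from a list fixed with earlier results of these data known. All 35 were found among the 51789 genes of the deposited count table. RNA of whole mouse tumours was measured in 14 libraries with a kit that reads the 3' end of polyadenylated RNA. Tumours from the strain written C57BI/6 in the labels (C57BI6 here) gave 4 ACSS2i and 4 vehicle libraries, and tumours from the strain written NGS gave 3 ACSS2i and 3 vehicle libraries. ACSS2i is an inhibitor of ACSS2, an enzyme that makes acetyl-CoA from acetate, and the series title places the study in triple negative breast cancer. The sources used here name neither the tumour line, the compound, its dose and duration, nor the age of the mice. They do not say which strain NGS stands for, and nothing was assumed about its immune cells. The series' design line speaks of Bmal1 status, which no label assigns to a library. Nothing says whether each library came from its own animal, so p-values measure the spread between these libraries.

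T cells recognise antigen through the T cell receptor, whose constant chains (Trac, Trbc1, Trbc2) carry no signalling tail and depend on the CD3 chains (Cd3d, Cd3e, Cd3g) and Cd247 to pass the signal on. The kinases Lck and Zap70 and the adaptor Lat take it up, the coreceptors Cd4 and Cd8 hold the receptor on its ligand, and costimulatory receptors such as Cd28 and Icos raise the response. Inhibitory receptors such as Ctla4 and Pdcd1 (PD-1) lower it and are targets of tumour immunotherapy. In bulk tumour RNA, fewer cells of a type and less RNA per cell cannot be told apart.

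Library totals were 18.4 to 20.3 M counts in C57BI6 ACSS2i, 17.6 to 19.2 M in C57BI6 vehicle, 2.85 to 4.04 M in NGS ACSS2i and 4.21 to 4.70 M in NGS vehicle, so depth followed the strain. The first principal component of all genes (60.5% of the variance) separated the strains, and the second (11.1%) set NGS ACSS2i replicate 2 apart. Levels are given as CPM, the gene's count divided by the library's total in M counts. A group with no count allows up to 3 counts, which is a floor of 0.0387 CPM in C57BI6 ACSS2i, 0.0403 in C57BI6 vehicle, 0.289 in NGS ACSS2i and 0.226 in NGS vehicle. Intervals and floors cover counting error only. Of the 35 genes, 32 held enough counts to be tested among 17294 genes, and Lag3, Tigit and Ifng did not.

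Many of these genes lie side by side. Within a window of 500 kb, 17 of them form 7 groups, among them Cd28, Ctla4 and Icos on chromosome 1 (mm10, 60716800 to 61000320), Trbc1 and Trbc2 on chromosome 6 (41538218 to 41548352), and Cd3g, Cd3d and Cd3e on chromosome 9 (44969572 to 45009627). The CD3 cluster spans 40.1 kb. The promoters of its 3 genes are shown because these chains define the T cell receptor complex, that of Ctla4 because it had the largest difference with treatment, and that of Tnfrsf9 because it was the only tested gene of the list with a negative log2 fold change. They are read 5′ to 3′ on the gene's strand, from 250 bases before to 50 after the start, from RefSeq (GRCm38.p6). Capitals mark any of 6 short words, searched on both strands and spelled out after the sequences, that belong to transcription factor families of T cells or to the TATA box.
Cd3d, chr9:44981536-44981835, plus strand: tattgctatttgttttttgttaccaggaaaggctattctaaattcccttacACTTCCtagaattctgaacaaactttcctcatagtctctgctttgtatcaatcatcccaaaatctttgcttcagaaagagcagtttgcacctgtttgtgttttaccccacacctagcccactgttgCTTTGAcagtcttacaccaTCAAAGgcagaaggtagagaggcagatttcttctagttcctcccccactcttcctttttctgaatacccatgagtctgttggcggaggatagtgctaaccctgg
Cd3e, chr9:45009562-45009861, minus strand: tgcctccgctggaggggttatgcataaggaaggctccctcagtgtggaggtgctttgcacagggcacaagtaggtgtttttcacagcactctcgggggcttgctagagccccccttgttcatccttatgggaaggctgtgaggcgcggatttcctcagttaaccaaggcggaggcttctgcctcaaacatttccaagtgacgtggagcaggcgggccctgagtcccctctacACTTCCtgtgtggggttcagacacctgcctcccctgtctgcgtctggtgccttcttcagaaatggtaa
Cd3g, chr9:44980382-44980681, minus strand: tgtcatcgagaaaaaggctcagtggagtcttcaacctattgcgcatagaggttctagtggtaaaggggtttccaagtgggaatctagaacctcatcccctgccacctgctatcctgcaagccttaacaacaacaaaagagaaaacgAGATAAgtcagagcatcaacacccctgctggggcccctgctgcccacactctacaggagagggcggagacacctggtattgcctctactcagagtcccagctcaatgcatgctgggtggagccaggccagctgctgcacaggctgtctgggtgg
Ctla4, chr1:60908775-60909074, plus strand: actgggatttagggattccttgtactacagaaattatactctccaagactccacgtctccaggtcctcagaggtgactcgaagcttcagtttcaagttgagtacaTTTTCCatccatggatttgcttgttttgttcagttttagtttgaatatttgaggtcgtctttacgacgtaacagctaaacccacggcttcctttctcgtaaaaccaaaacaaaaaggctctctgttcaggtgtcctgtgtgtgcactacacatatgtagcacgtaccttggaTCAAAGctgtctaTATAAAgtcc
Tnfrsf9, chr4:150919905-150920204, plus strand: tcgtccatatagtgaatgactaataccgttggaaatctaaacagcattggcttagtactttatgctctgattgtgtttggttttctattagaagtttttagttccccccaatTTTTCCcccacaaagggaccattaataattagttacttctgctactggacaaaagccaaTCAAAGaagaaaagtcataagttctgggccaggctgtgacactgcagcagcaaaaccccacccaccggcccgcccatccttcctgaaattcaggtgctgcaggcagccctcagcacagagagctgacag
Of the 35 genes, 23 had a promoter in the RefSeq table. The ETS word GGAAGT was in 8 of the 23 (34.8%), against 24.1% of all 27025 promoters of the same length. The TCF/LEF word CTTTGA was in 6 (26.1%, against 16.2%). The NFAT word GGAAAA was in 6 (26.1%, against 23.6%). The RUNX word TGTGGT was in 4 (17.4%, against 16.9%). The GATA word AGATAA was in 2 (8.7%, against 11.4%). The TATA word TATAAA was in 3 (13.0%, against 14.2%). Neighbouring words may overlap and were counted apart. A match is a description of the letters and not a binding site.

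The first comparison asks what the inhibitor did to these genes in C57BI6 tumours. Nearly all lay higher in the ACSS2i tumours, with a median log2 fold change of 1.51 over the 32 tested genes, against -0.01 over all 17294 genes. Of the 32, 31 had a positive log2 fold change (47.3% of all genes did), and 21 of all 35 were above every vehicle library in every ACSS2i library (7.05% of all genes). None was lower in that way (1.89% of all genes). None passed the adjusted threshold of 0.05 in edgeR's quasi-likelihood test, in which 0.26% of all genes were called higher and 0.052% lower, and the smallest adjusted p was 0.0701. At an unadjusted p under 0.05, 27 were higher (5.05% of all genes) and 0 lower (2.91%). Because the list was chosen with earlier results of these data known, these shares are a description and no independent test. Some genes, such as Ctla4, Cd3g and Cd6, passed the filter on low counts only through the ACSS2i tumours, where they were high. Such genes could hardly come out lower, so part of the 31 positive signs follows from the filter. Without that filter 33 of the 35 genes had a positive log2 fold change and 2 a negative one. The number called depended on the tool and the libraries fitted. DESeq2 called 9, where it called 268 of 28338 genes higher. Limma voom with quality weights called 17 (338 of 17294 genes). A fit without the filter on low counts called 5 (100 of 28428), and a fit of the C57BI6 libraries alone 8 (234 of 15589). With DESeq2 size factors in edgeR, a filter of 1 CPM in 3 or more libraries, or the replicate number as a block, 0 were called. Leaving out 1 library at a time gave 0 to 3 calls, the 3 without NGS ACSS2i replicate 2, and 18 to 28 genes at the unadjusted threshold, the 18 without C57BI6 ACSS2i replicate 2.

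**Figure D1:**
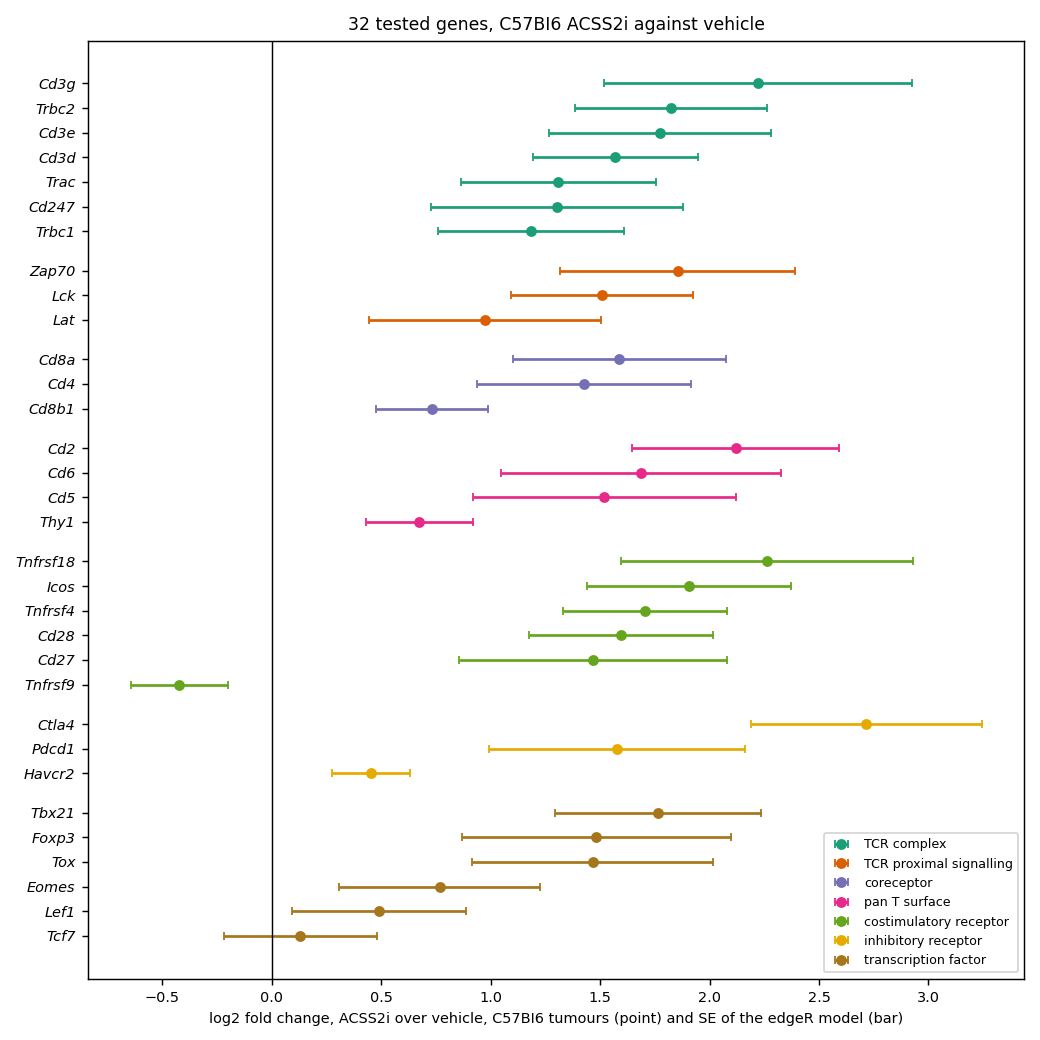
Log2 fold change of ACSS2i over vehicle in C57BI6 tumours (x axis, point) with the standard error of the edgeR model (bar) for each of the 32 tested genes (y axis), coloured by role. Points lie right of 0 for 31 genes, with Ctla4 farthest at 2.72, and left of 0 for Tnfrsf9 at -0.42.

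All 7 genes of the receptor complex had positive log2 fold changes, with a median of 1.57, and 6 of them separated the groups completely. Trbc2, a constant segment of the receptor's beta chain, had 13.0, 21.5, 8.97 and 15.7 CPM in the 4 ACSS2i tumours, against 5.67, 1.75, 3.54 and 5.04 CPM in the 4 vehicle tumours. Every treated library was above every vehicle library, and replicate 2 of the treated group was the highest while replicate 2 of the vehicle group was the lowest. The log2 fold change was 1.82 ± 0.44 (SE, n = 4 each; adjusted p = 0.113). Cd3d, a signalling chain of the CD3 complex, had 6.63, 7.57, 3.02 and 4.33 CPM in ACSS2i tumours and 2.35, 1.01, 1.72 and 1.87 CPM in vehicle tumours. There was no overlap, with the lowest treated library (replicate 3) above the highest vehicle library (replicate 1), and the log2 fold change was 1.57 ± 0.38 (adjusted p = 0.131). Cd3e, the chain that pairs with both Cd3d and Cd3g, had 2.61, 4.72, 1.40 and 2.31 CPM in ACSS2i tumours and 1.12, 0.265, 0.885 and 0.793 CPM in vehicle tumours. It showed the same order of extreme libraries, at 1.77 ± 0.51 (adjusted p = 0.266).

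The other 4 genes of the complex behaved alike in direction. Cd3g ran from 1.13 to 2.26 CPM in ACSS2i tumours, against 0 to 0.695 CPM in vehicle tumours, where replicate 2 had no count. Trac, the constant segment of the alpha chain, ran from 4.64 to 9.98 CPM in ACSS2i tumours and 1.70 to 4.17 CPM in vehicle tumours, and Trbc1, the other beta chain segment, from 1.74 to 2.95 CPM in ACSS2i tumours and 0.530 to 1.28 CPM in vehicle tumours. None of these 3 overlapped between the groups. Cd247, the zeta chain that carries most of the complex's signalling motifs, did overlap, at 1.03 to 3.34 CPM in ACSS2i tumours and 0.371 to 1.12 CPM in vehicle tumours. Their log2 fold changes lay between 1.18 (Trbc1) and 2.22 (Cd3g), with adjusted p from 0.334 (Cd3g) to 0.580 (Cd247). Trbc1 and Trbc2 are near copies, with 283 windows of 50 bases in common (40.5% of those of Trbc1 and 44.0% of those of Trbc2), so how counting split reads between them is uncertain. The ratio of Trbc2 to Trbc1 counts averaged 6.91 ± 1.86 in ACSS2i tumours and 4.35 ± 0.79 in vehicle tumours (SD, n = 4 each), and the groups overlapped.

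**Figure D2:**
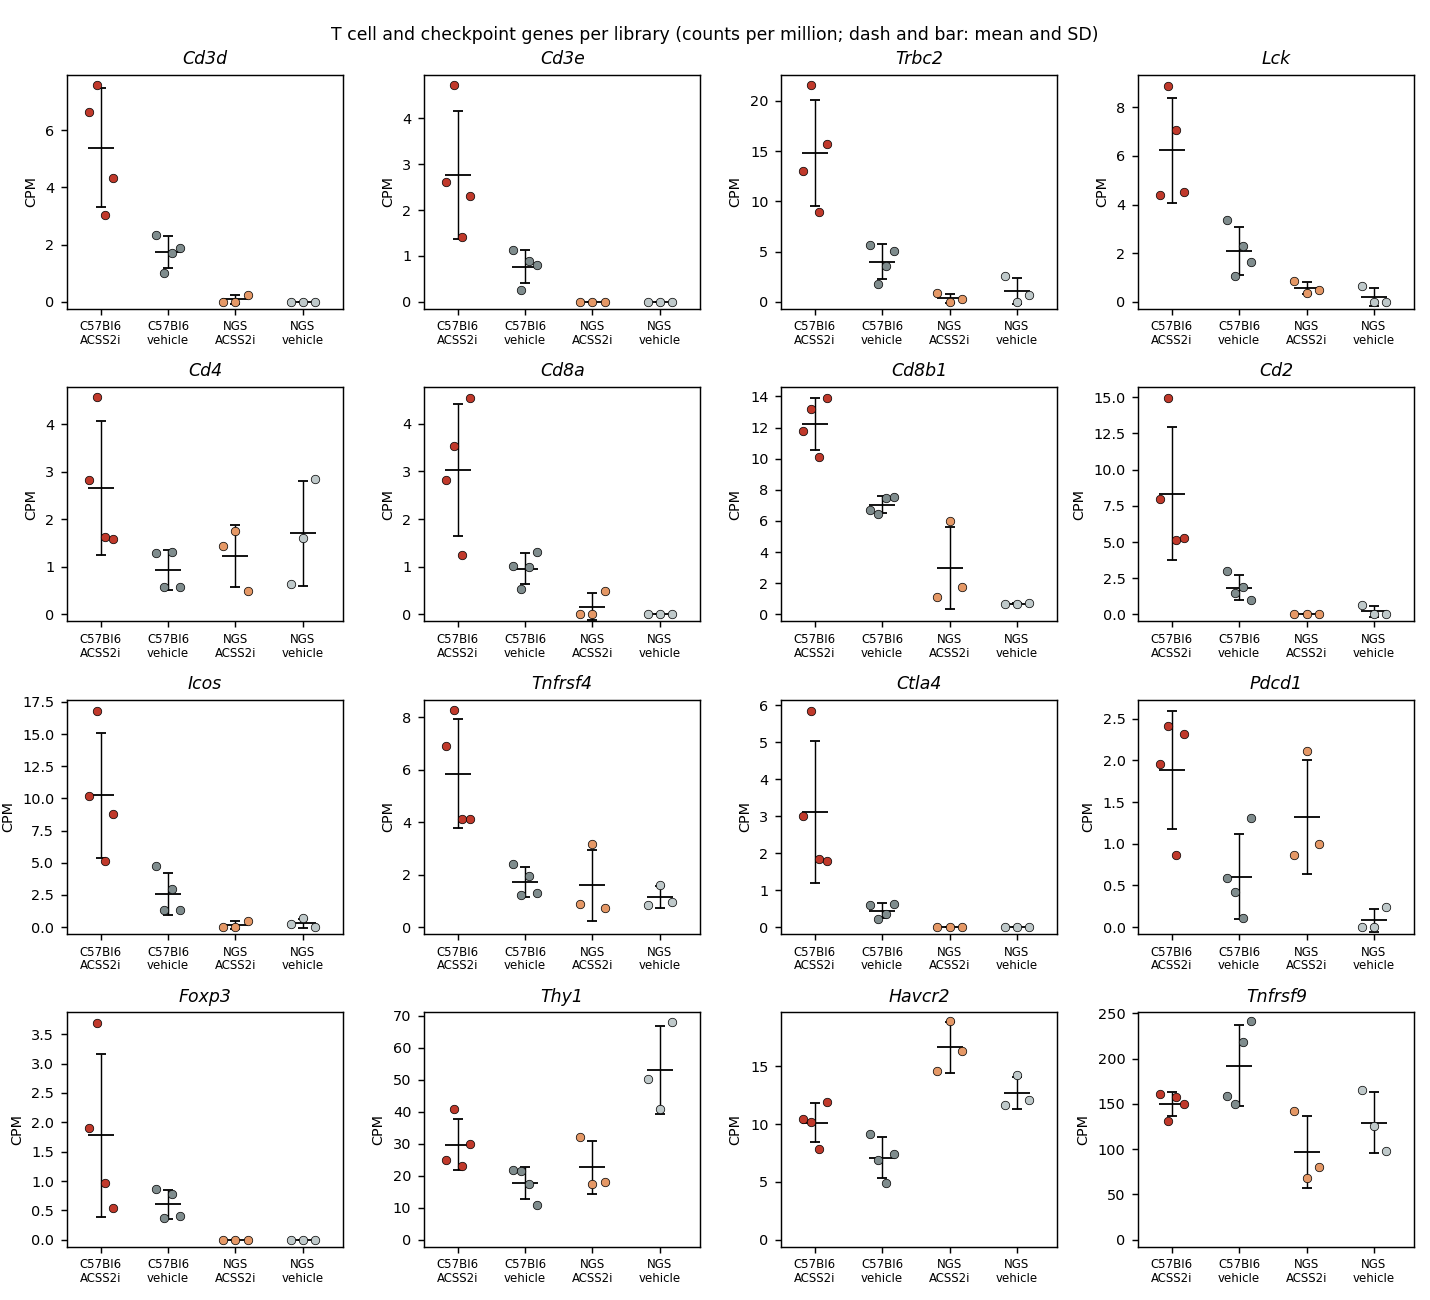
CPM (y axes, linear from 0) of 16 of the genes in each of the 14 libraries (points), by strain and treatment (x axes), with the mean and SD of each group (dash and bar). The C57BI6 ACSS2i points of Cd3d, Cd3e, Trbc2, Lck, Cd2, Icos, Tnfrsf4 and Ctla4 all sit above the C57BI6 vehicle points, the NGS points of Cd3e, Ctla4 and Foxp3 sit at 0, and Thy1, Havcr2 and Tnfrsf9 are present in all 4 groups.

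Of the 3 genes of the signalling step next to the receptor, Lck and Zap70 separated the groups and Lat did not. Lck, the kinase that first phosphorylates the CD3 chains, had 4.40, 8.90, 7.07 and 4.53 CPM in ACSS2i tumours and 3.37, 1.06, 2.29 and 1.64 CPM in vehicle tumours. Treated replicates 2 and 3 were the highest of the 8 libraries, and the log2 fold change was 1.51 ± 0.41 (adjusted p = 0.180). Zap70, the kinase recruited to phosphorylated CD3 chains, had 1.90, 3.00, 1.73 and 1.43 CPM in ACSS2i tumours and 0.588, 0.106, 0.729 and 0.680 CPM in vehicle tumours. Its groups were apart in all 8 libraries, at 1.85 ± 0.54 (adjusted p = 0.273). Lat, the adaptor that Zap70 phosphorylates, had 1.58, 1.92, 0.756 and 2.46 CPM in ACSS2i tumours and 1.18, 0.954, 0.677 and 0.453 CPM in vehicle tumours. Treated replicate 3 lay among the vehicle libraries, and the log2 fold change was 0.97 ± 0.53 (adjusted p = 0.743), not under 0.05 even before adjustment.

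The coreceptors of both lineages had positive log2 fold changes, and none passed. Cd4, the coreceptor of helper and regulatory T cells that some myeloid cells also carry, had 2.83, 4.57, 1.62 and 1.58 CPM in ACSS2i tumours and 1.28, 0.583, 1.30 and 0.567 CPM in vehicle tumours. Treated and vehicle libraries did not overlap, and treated replicate 2 stood highest (1.43 ± 0.49, adjusted p = 0.353). Cd8a, the coreceptor chain of cytotoxic T cells, had 2.83, 3.54, 1.24 and 4.53 CPM in ACSS2i tumours and 1.02, 0.530, 0.990 and 1.30 CPM in vehicle tumours. Here treated replicate 4 was the highest and treated replicate 3 lay just under the highest vehicle library (1.59 ± 0.49, adjusted p = 0.289). Cd8b1, the chain that pairs with Cd8a, had 11.8, 13.2, 10.1 and 13.9 CPM in ACSS2i tumours and 6.68, 6.46, 7.50 and 7.54 CPM in vehicle tumours. Its groups were tight and apart, with a smaller log2 fold change of 0.73 ± 0.26 (adjusted p = 0.379). The ratio of Cd4 to Cd8a counts averaged 0.99 ± 0.45 in ACSS2i tumours and 1.03 ± 0.41 in vehicle tumours (SD, n = 4 each), a difference smaller than the spread.

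Surface proteins shared by most T cells had positive log2 fold changes as well, and none passed. Cd2, an adhesion receptor that binds Cd48 in mice and is also on natural killer cells, had 7.99, 14.9, 5.13 and 5.27 CPM in ACSS2i tumours and 2.99, 1.48, 1.88 and 0.963 CPM in vehicle tumours. Treated replicate 2 was far above the rest, the groups did not overlap, and the log2 fold change was 2.12 ± 0.47 (adjusted p = 0.0929). Thy1, a surface glycoprotein of mouse T cells that fibroblasts also make, had 25.0, 41.0, 23.0 and 30.0 CPM in ACSS2i tumours and 21.8, 21.3, 17.4 and 10.9 CPM in vehicle tumours. The lowest treated library was close to the 2 highest vehicle libraries, and the log2 fold change was 0.67 ± 0.25 (adjusted p = 0.407). Cd6, a receptor that binds ALCAM, had 0.707, 3.10, 0.594 and 1.13 CPM in ACSS2i tumours and 0.588, 0.159, 0.365 and 0.510 CPM in vehicle tumours. Cd6 did not overlap between the groups, with treated replicate 2 the highest and treated replicate 3 just above vehicle replicate 1 (1.69 ± 0.64, adjusted p = 0.480). Its neighbour on chromosome 19, the inhibitory coreceptor Cd5, ran from 0.756 to 3.00 CPM in ACSS2i tumours and 0.265 to 0.885 CPM in vehicle tumours, and overlapped.

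Among the 6 costimulatory receptors, 5 had log2 fold changes from 1.47 to 2.26, and 1, Tnfrsf9, had a negative one. Tnfrsf4 (OX40), which sustains activated and regulatory T cells, had 6.90, 8.26, 4.10 and 4.14 CPM in ACSS2i tumours and 2.41, 1.22, 1.93 and 1.30 CPM in vehicle tumours. The groups did not overlap (1.70 ± 0.37, adjusted p = 0.0759). Icos, induced on activated T cells, had 10.2, 16.8, 5.13 and 8.82 CPM in ACSS2i tumours and 4.76, 1.32, 2.97 and 1.36 CPM in vehicle tumours. Treated replicate 2 was the highest, and the lowest treated library was just above vehicle replicate 1 (1.91 ± 0.47, adjusted p = 0.121). Cd28, the main costimulatory receptor of resting T cells, had 3.70, 5.46, 2.48 and 3.50 CPM in ACSS2i tumours and 1.87, 0.636, 1.35 and 0.907 CPM in vehicle tumours, again without overlap (1.60 ± 0.42, adjusted p = 0.158).

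Tnfrsf18 (GITR), which lies next to Tnfrsf4 on chromosome 4 and is abundant on regulatory T cells, ran from 4.05 to 10.9 CPM in ACSS2i tumours and 0.583 to 2.14 CPM in vehicle tumours, without overlap. Cd27, a receptor of naive and memory T cells, ran from 0.810 to 2.16 CPM in ACSS2i tumours and 0.106 to 1.07 CPM in vehicle tumours, with overlap. Tnfrsf9 (4-1BB), named after its values were seen, is an inducible receptor of activated T and natural killer cells. It had 160.3, 132, 157 and 150.1 CPM in ACSS2i tumours and 158, 150.3, 219 and 242 CPM in vehicle tumours. The groups overlapped, with vehicle replicates 3 and 4 above all others, and the log2 fold change was -0.42 ± 0.22 (adjusted p = 0.716). Tnfrsf9 overlaps Camta1 on the other strand, and an unnamed transcript, Gm37039, lies inside Icos on the same strand with 133 counts over the C57BI6 libraries and 0 over the NGS libraries. Whether counting used the strand is not given in the sources used here.

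Ctla4 had the largest log2 fold change and the smallest adjusted p of the 32 genes. This inhibitory receptor competes with Cd28 for its ligands and is constitutive on regulatory T cells. It had 2.99, 5.85, 1.84 and 1.77 CPM in ACSS2i tumours and 0.588, 0.212, 0.365 and 0.623 CPM in vehicle tumours. All 4 treated libraries were above all 4 vehicle libraries, and treated replicate 2 was the highest (2.72 ± 0.53, adjusted p = 0.0701, 0.00206 to 0.268 over the alternatives). Pdcd1, the receptor PD-1 of activated and exhausted T cells, had 1.96, 2.41, 0.864 and 2.31 CPM in ACSS2i tumours and 0.588, 0.424, 0.104 and 1.30 CPM in vehicle tumours. Treated replicate 3 was below vehicle replicate 4, and the log2 fold change was 1.58 ± 0.58 (adjusted p = 0.419). Havcr2 (TIM-3), which macrophages and dendritic cells also make, had 10.5, 10.2, 7.88 and 11.9 CPM in ACSS2i tumours and 9.20, 6.89, 4.95 and 7.42 CPM in vehicle tumours. Its groups overlapped at a small log2 fold change of 0.45 ± 0.18 (adjusted p = 0.467).

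The inhibitory receptors Lag3, which binds MHC class II, and Tigit, which binds the poliovirus receptor, were close to the limit of detection. Lag3 had 3 counts over the ACSS2i tumours and 1 over the vehicle tumours, and Tigit had 7 counts over the ACSS2i tumours and 9 over the vehicle tumours. Neither can be compared at this depth. A pseudogene, Rpl18-ps1, lies inside Ctla4 on the same strand and had 2 counts over the C57BI6 libraries and 226 over the NGS libraries, where Ctla4 had 0.

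Of the 6 transcription factors, Tbx21, Tox and Foxp3 had an unadjusted p under 0.05 in the edgeR fit over all genes, and Eomes, Tcf7 and Lef1 did not. Tbx21 (T-bet), the factor of type 1 helper and cytotoxic cells, had 1.85, 3.64, 2.05 and 1.53 CPM in ACSS2i tumours and 0.962, 0.583, 0.260 and 0.737 CPM in vehicle tumours. The groups did not overlap (1.77 ± 0.47, adjusted p = 0.215). Tox, a factor of exhausted and developing T cells, had 1.47, 2.51, 0.972 and 0.887 CPM in ACSS2i tumours and 0.428, 0.212, 0.729 and 0.623 CPM in vehicle tumours, also without overlap (1.47 ± 0.55, adjusted p = 0.422). Foxp3, the factor that defines regulatory T cells, had 1.90, 3.69, 0.972 and 0.542 CPM in ACSS2i tumours and 0.856, 0.371, 0.781 and 0.397 CPM in vehicle tumours. Treated replicates 1 to 3 were above the vehicle range and treated replicate 4 was inside it (1.48 ± 0.62, adjusted p = 0.554). The ends of Foxp3 overlap Ppp1r3f and Ccdc22 on the other strand.

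Eomes, a factor of memory and cytotoxic cells, ran from 0.816 to 3.35 CPM in ACSS2i tumours and 0.909 to 1.70 CPM in vehicle tumours, with overlap. Tcf7 and Lef1, factors of naive and stem-like T cells that other tissues also make, had log2 fold changes of 0.13 ± 0.35 (adjusted p = 0.990) and 0.49 ± 0.40 (adjusted p = 0.886). Tcf7 ran from 1.85 to 2.70 CPM in ACSS2i tumours and 1.53 to 2.34 CPM in vehicle tumours, and Lef1 from 2.61 to 6.09 CPM in ACSS2i tumours and 1.80 to 4.49 CPM in vehicle tumours. Both sets of groups overlapped. Ifng, the cytokine interferon gamma made by T and natural killer cells, had 9, 14, 4 and 12 counts in the ACSS2i tumours and 2, 0, 0 and 2 counts in the vehicle tumours. Its groups did not overlap, at 0.496 ± 0.204 CPM in ACSS2i tumours and 0.0551 ± 0.0636 CPM in vehicle tumours (SD, n = 4 each), but it was not tested.

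**Figure D3:**
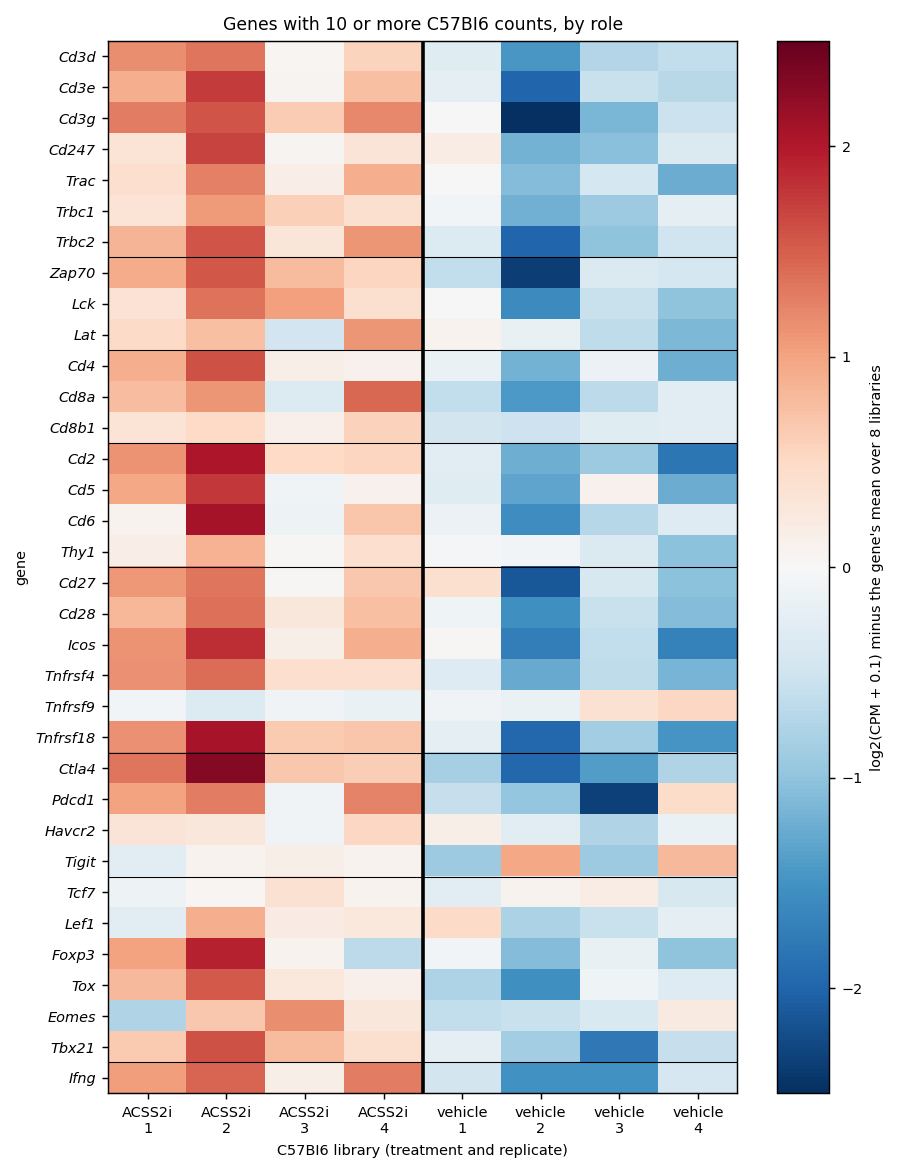
Log2(CPM + 0.1) of each gene with 10 or more counts in C57BI6 tumours (rows, by role) minus its mean over the 8 C57BI6 libraries (columns, ACSS2i left of vehicle). ACSS2i replicate 2 is the reddest column, with the highest value of the 8 for 26 of 34 genes, and vehicle replicate 2 the bluest, with the lowest for 22.

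The genes varied together from library to library within a treatment. Lag3 left out, ACSS2i replicate 2 had the highest level of the 8 libraries for 26 of 34 genes and vehicle replicate 2 the lowest for 22. Within the ACSS2i group replicate 3 was the lowest for 21 genes, and within the vehicle group replicate 1 was the highest for 21. The 7 receptor complex genes summed to 22.3 to 52.3 CPM in ACSS2i tumours and 5.83 to 16.4 CPM in vehicle tumours. These sums did not overlap, at 35.6 ± 12.5 CPM in ACSS2i tumours and 11.1 ± 4.35 CPM in vehicle tumours (SD, n = 4 each). All 35 genes together did overlap, at 311 ± 38.5 CPM in ACSS2i tumours and 259 ± 41.7 CPM in vehicle tumours, and Tnfrsf9 and Thy1 held most of their counts. Without Tnfrsf9 and Thy1, left out after their values were seen, the sum was 132 ± 42.2 CPM in ACSS2i tumours and 49.5 ± 13.0 CPM in vehicle tumours.

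Relative to the summed CD3 chains in the same library, most of the genes overlapped between the C57BI6 groups. The CD3 sum itself was 11.1, 14.5, 5.56 and 8.37 CPM in ACSS2i tumours and 4.17, 1.27, 2.86 and 3.12 CPM in vehicle tumours. Ctla4 per CD3 was 0.270, 0.402, 0.330 and 0.212 in ACSS2i tumours and 0.141, 0.167, 0.127 and 0.200 in vehicle tumours. It was the only gene besides Ifng whose treated libraries were all above the vehicle ones on this scale. The separation of Ctla4 rested on the denominator. Its groups overlapped per Cd3e alone, at 0.766 to 1.31 in ACSS2i tumours and 0.412 to 0.800 in vehicle tumours. They also overlapped per Trac, at 0.225 to 0.586 in ACSS2i tumours and 0.111 to 0.367 in vehicle tumours. The ratios rest on few counts, as Ctla4 had 11, 4, 7 and 11 counts in the vehicle tumours. Vehicle replicate 2 had 19 counts of Cd3d, 5 of Cd3e and 0 of Cd3g. Counting error of the ratios was not assessed, so small gaps or overlaps are uncertain. Per Trac, Tnfrsf18 was the 1 gene above without overlap. Relative to the summed CD3 chains, Tnfrsf9, Havcr2 and Lef1 lay below without overlap. Tnfrsf9 was at 17.4 ± 8.08 in ACSS2i tumours and 77.5 ± 32.8 in vehicle tumours (SD, n = 4 each). Havcr2 and Lef1 overlapped per Cd3e alone and per Trac, while Tnfrsf9 lay below without overlap under all 3 denominators. For the other genes the groups overlapped per CD3, for example Foxp3 at 0.166 ± 0.077 in ACSS2i tumours and 0.224 ± 0.075 in vehicle tumours, and Icos at 1.01 ± 0.11 in ACSS2i tumours and 0.914 ± 0.322 in vehicle tumours. These ratios are a description with no test. The receptor complex as a whole was at a log2 ratio of -0.12 between the groups on this scale, and at 0.23 when Trac served as the denominator. Its sum includes the CD3 chains and Trac, so each ratio contains its own denominator and is pulled towards no difference.

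**Figure D4:**
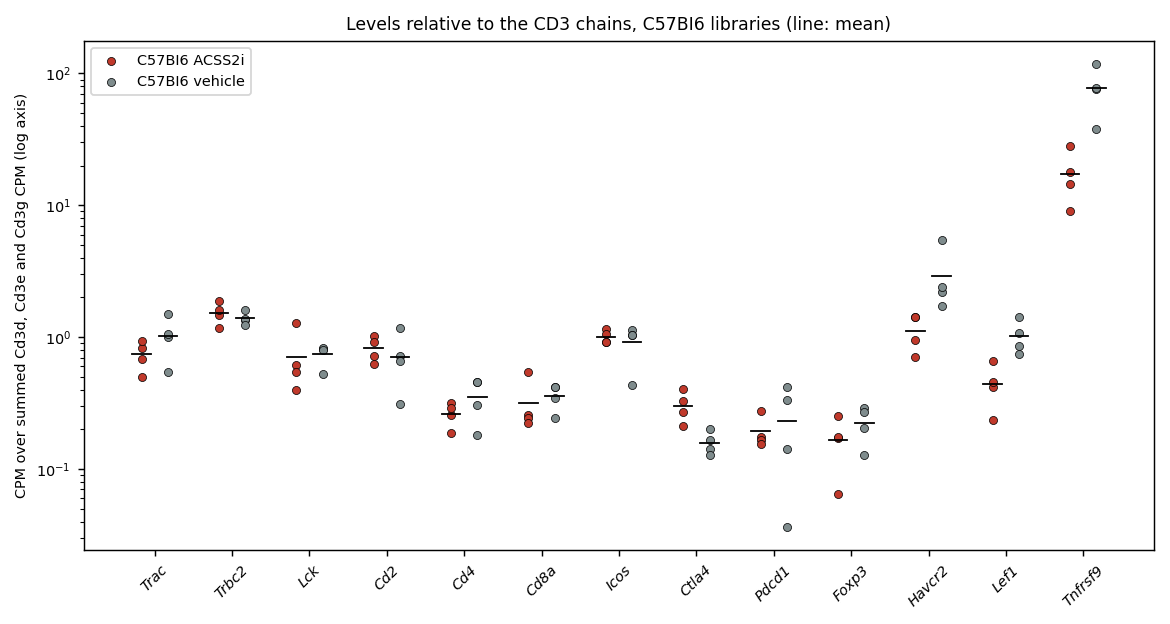
CPM of 13 genes divided by the summed CPM of Cd3d, Cd3e and Cd3g in the same library (y axis, log), for the 4 ACSS2i and 4 vehicle libraries of the C57BI6 strain (points, line at the mean). Ctla4 is higher in the ACSS2i libraries (0.212 to 0.402) than in the vehicle libraries (0.127 to 0.200), and Havcr2, Lef1 and Tnfrsf9 are lower. With Cd3e alone or Trac as the denominator the groups of Ctla4, Havcr2 and Lef1 overlap and those of Tnfrsf9 do not.

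Further genes of T cell signalling and state were taken from other lists. Of 28 further genes of receptor signalling, 24 were tested and 0 were called (0.26% of all genes were called higher). Of the 24, 8 were higher at an unadjusted p under 0.05 (5.05% of all genes), and the median log2 fold change was 0.36. Those with the smallest p were Ptpn22, a phosphatase that restrains Lck (1.07 ± 0.24, adjusted p = 0.0773), and Ptprc (CD45), found on all leukocytes (0.57 ± 0.14, adjusted p = 0.121). Of 28 further genes of T cell state and homing, 23 were tested and 17 were higher at the unadjusted threshold (5.05% of all genes), with a median of 1.09. Il2rb, the receptor chain shared by the cytokines IL-2 and IL-15 on T and natural killer cells, was the 1 gene called. It had 15.7, 26.7, 26.5 and 21.2 CPM in ACSS2i tumours and 10.2, 5.83, 8.02 and 9.35 CPM in vehicle tumours. The groups did not overlap, and it rose by 1.37 ± 0.24 on the log2 scale (adjusted p = 0.0297). The call was lost with the replicate block and without C57BI6 ACSS2i replicate 2, 3 or 4 or C57BI6 vehicle replicate 2, 3 or 4, with adjusted p up to 0.144. Il2ra, the alpha chain of the IL-2 receptor, was at 2.10 ± 0.44 (adjusted p = 0.0573) and Cd96, a receptor of T and natural killer cells, at 2.17 ± 0.41 (adjusted p = 0.0649). Of 5 gamma delta receptor genes 3 were tested, 0 were called and 1 was higher at the unadjusted threshold, with Tcrg-C2 at 1.99 ± 0.48 (adjusted p = 0.156).

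Markers of natural killer and B cells also had higher summed levels in the ACSS2i tumours, at 21.3 ± 6.84 CPM for natural killer markers without Klra4, against 6.62 ± 0.476 CPM in vehicle tumours, and 30.6 ± 17.6 CPM for B cell markers, against 16.7 ± 6.56 CPM in vehicle tumours (SD, n = 4 each). All 8 natural killer markers were tested, 0 were called by edgeR and 4 were higher at an unadjusted p under 0.05. Over all genes 0.26% were called higher and 5.05% were higher at the unadjusted threshold. Klrd1, a chain of the CD94 receptor, was at 1.72 ± 0.37 (adjusted p = 0.0652) and Klrk1 (NKG2D) at 1.95 ± 0.44 (adjusted p = 0.0883). Klra4 was abundant in all groups, and leaving it out departed from the list of 8. With it the sum was 81.5 ± 8.99 CPM in ACSS2i tumours and 60.8 ± 10.3 CPM in vehicle tumours (SD, n = 4 each). Without it the sum ran from 12.7 to 29.4 CPM in ACSS2i tumours and 6.06 to 7.22 CPM in vehicle tumours. The highest library of this sum was ACSS2i replicate 3, which was the lowest treated one for most T cell genes. ACSS2i replicate 2, the highest for most T cell genes, was also the highest C57BI6 library for other sums. These were B cell (53.3 CPM), lymph node stroma (8.75), dendritic cell (76.0) and endothelial markers (158.6). It was not the highest for gamma delta, thymocyte, macrophage, neutrophil, fibroblast, tumour epithelium, skeletal muscle or skin markers. The 10 B cell markers, of which 4 were tested, 0 called and 1 higher at the unadjusted threshold, summed to 14.9 to 53.3 CPM in ACSS2i tumours and 11.2 to 25.8 CPM in vehicle tumours, mostly from Ighm. The 8 macrophage markers summed to 1923 to 2760 CPM in ACSS2i tumours and 1578 to 2448 CPM in vehicle tumours, with 8 tested, 0 called and 2 higher at the unadjusted threshold. The 4 lymph node stroma markers summed to 6.16 to 8.75 CPM in ACSS2i tumours and 0.321 to 8.05 CPM in vehicle tumours, with 2 tested, 0 called and 1 higher at the unadjusted threshold. Of the 4 thymocyte markers Rag1 had 0 counts in all groups, and the sum was 1.87 to 2.77 CPM in ACSS2i tumours and 2.14 to 3.40 CPM in vehicle tumours. The part of these cell types in the difference of the T cell genes was not tested.

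In NGS tumours most of the genes had few or no counts, which limits the same comparison there. Of the 35 genes, 11 had 0 counts in all 6 NGS libraries (Cd3e, Cd3g, Zap70, Cd6, Cd27, Ctla4, Lag3, Tigit, Foxp3, Tbx21 and Ifng). A further 9 had 1 to 9 counts (Cd3d, Cd247, Trbc1, Lck, Cd8a, Cd2, Cd5, Icos and Tox). Another 10 had 10 to 99 (Trac, Trbc2, Lat, Cd4, Cd8b1, Cd28, Tnfrsf4, Tnfrsf18, Pdcd1 and Eomes). Only Thy1, Tnfrsf9, Havcr2, Tcf7 and Lef1, all made by cells other than T cells too, had 100 or more. For genes of the first pair of classes a fall or a small rise with treatment was not detectable at this depth. The C57BI6 ACSS2i level would have given 87.3 counts of Cd2 and 107 of Icos in the NGS ACSS2i tumours. These held 0 of Cd2 and 2 of Icos. For Lag3 that level would have given only 0.401 counts.

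Of the 32 tested genes 1 was called lower in NGS ACSS2i tumours (1.38% of all genes were) and 0 higher (1.32% of all genes). Thy1 had 32.1, 17.6 and 18.1 CPM in the 3 ACSS2i tumours and 50.2, 41.0 and 68.2 CPM in the 3 vehicle tumours. The groups did not overlap, with treated replicate 1 nearest to the vehicle libraries. Thy1 fell by 1.27 ± 0.31 on the log2 scale (SE, n = 3 each; adjusted p = 0.0431). The call was lost in limma voom, with the replicate number as a block and in a fit of the NGS libraries alone, and it held in 3 of the 14 fits that left out 1 library, those without NGS ACSS2i replicate 1, C57BI6 vehicle replicate 4 and C57BI6 ACSS2i replicate 2, with adjusted p from 0.00306 to 0.164 over all alternatives. The 7 fibroblast markers summed to 6366 to 7255 CPM in ACSS2i tumours and 7792 to 8681 CPM in vehicle tumours. Of the 7, 5 had a negative log2 fold change and 2 a positive one. Only 1 was called lower by edgeR, Dcn, a proteoglycan of connective tissue (-1.21, adjusted p = 0.0148). That call was lost in a fit of the NGS libraries alone and without NGS ACSS2i replicate 2 or 3. The part of the fibroblast markers in the Thy1 result was not tested.

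At the unadjusted threshold 4 genes were higher in NGS ACSS2i tumours (10.1% of all genes) and 1 lower (12.1%), and 5 were higher without overlap (10.2%) and 1 lower (8.56%). Cd8b1 had 4, 17 and 7 counts in ACSS2i tumours and 3, 3 and 3 counts in vehicle tumours. Replicate 2 of the treated group held most of them (1.98 ± 0.55, adjusted p = 0.0628). Pdcd1 had 3, 6 and 4 counts in ACSS2i tumours and 0, 0 and 1 counts in vehicle tumours, without overlap (adjusted p = 0.101). Lef1 had 7.46, 18.3 and 5.70 CPM in ACSS2i tumours and 3.83, 5.30 and 1.90 CPM in vehicle tumours, with treated replicate 2 far above the rest (1.44 ± 0.51, adjusted p = 0.125). Cd28 had 2, 3 and 4 counts in ACSS2i tumours and 2, 0 and 0 in vehicle tumours (adjusted p = 0.168). Havcr2, at 14.6, 19.0 and 16.4 CPM in ACSS2i tumours and 11.7, 14.3 and 12.1 CPM in vehicle tumours, was higher without overlap at a small 0.34 ± 0.22 (adjusted p = 0.387). Tnfrsf9 overlapped, at 142, 67.8 and 79.8 CPM in ACSS2i tumours and 165, 125 and 97.4 CPM in vehicle tumours.

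Whether the response to the inhibitor differed between the strains was tested as the effect in C57BI6 minus the effect in NGS. Of the 32 genes 0 were called (0.0173% of all genes were higher and 0% lower), and 6 were higher at an unadjusted p under 0.05 (7.56% of all genes) and 0 lower (6.22%). The 6 were Trbc1, Trbc2, Cd4, Cd2, Thy1 and Tnfrsf18. Trbc1 and Cd2 each held only 3 counts over the NGS libraries. In the NGS vehicle tumours replicate 1 held 12 of the 15 Trbc2 counts and 18 of the 20 Tnfrsf18 counts. DESeq2 called 1, Thy1. Thy1 had the largest support in edgeR too, at 1.95 ± 0.39 (SE; adjusted p = 0.141), with a level that was higher in ACSS2i than in vehicle tumours of the C57BI6 strain and lower in those of the NGS strain. The call appeared without NGS ACSS2i replicate 1, and the adjusted p ran from 0.00144 to 0.241 over the alternatives. For the CD3 chains, Zap70, Ctla4, Foxp3 and Tbx21, which had no more than 1 count in NGS tumours, the difference in response could not be estimated.

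The strains were then compared within each treatment. In ACSS2i tumours 24 of the 32 genes were higher in C57BI6 than in NGS (23.1% of all genes were called higher) and 2 were lower (17.2%). In vehicle tumours 17 were higher (18.8% of all genes) and 3 lower (14% of all genes). Tested genes with 0 counts, or with 1 to 9, over the 6 NGS libraries passed the filter on low counts only through the C57BI6 tumours. They could hardly come out lower in C57BI6 and are among the genes called higher, so these numbers are a description. All 7 genes of the receptor complex were higher with ACSS2i and 5 of 7 with vehicle, all but Cd3g and Cd247. The number in vehicle tumours rested on the model, with 6 higher by limma voom, 8 with the replicate block and 11 in a fit of the vehicle libraries alone. It was 8 without NGS vehicle replicate 2, 9 without NGS vehicle replicate 3 and 11 without C57BI6 vehicle replicate 1, and no fewer than 12 without any other library.

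Where NGS libraries hold few counts, the comparison is given as counts. The intervals cover counting error of the pooled counts, not the spread between libraries. The floors allow for counting error in NGS alone and leave out the error of the C57BI6 level. Cd3d had 129 counts over the C57BI6 vehicle tumours and 0 over the NGS vehicle tumours, where the C57BI6 level would have given 23.0. It was thus at least 7.67-fold higher in C57BI6, against the floor of 3 counts over the group (adjusted p = 0.000599). With ACSS2i it had 420 counts in C57BI6 and 1 in NGS, where the C57BI6 level would have given 56.1, a ratio of 56.1 with an exact 95% interval of 10.02 to 2223. Cd3e had 217 counts in C57BI6 ACSS2i tumours and 0 in NGS ACSS2i tumours, at least 9.55-fold higher, and with vehicle 57 counts in C57BI6 and 0 in NGS, at least 3.39-fold higher. Cd2 had 653 counts in C57BI6 ACSS2i tumours and 0 in NGS ACSS2i tumours, at least 28.8-fold higher. With vehicle it had 137 counts in C57BI6 and 3 in NGS, a ratio of 8.13 with an interval of 2.72 to 39.9. Ctla4 had 244 counts in C57BI6 ACSS2i tumours and 0 in NGS ACSS2i tumours, at least 10.8-fold higher, and with vehicle 33 counts in C57BI6 and 0 in NGS, at least 1.97-fold higher. The CD3 chains were thus at or within 1 count of 0 in every NGS library. Of the 7 natural killer markers other than Klra4, 3 (Ncr1, Klrb1c and Klre1) also had 0 counts in all 6 NGS libraries. The other 4 brought the sum to 3.86 to 8.92 CPM with ACSS2i and 0.461 to 2.13 CPM with vehicle. With Klra4 the NGS sum was 58.3 to 88.5 CPM with ACSS2i and 51.3 to 89.6 CPM with vehicle.

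**Figure D5:**
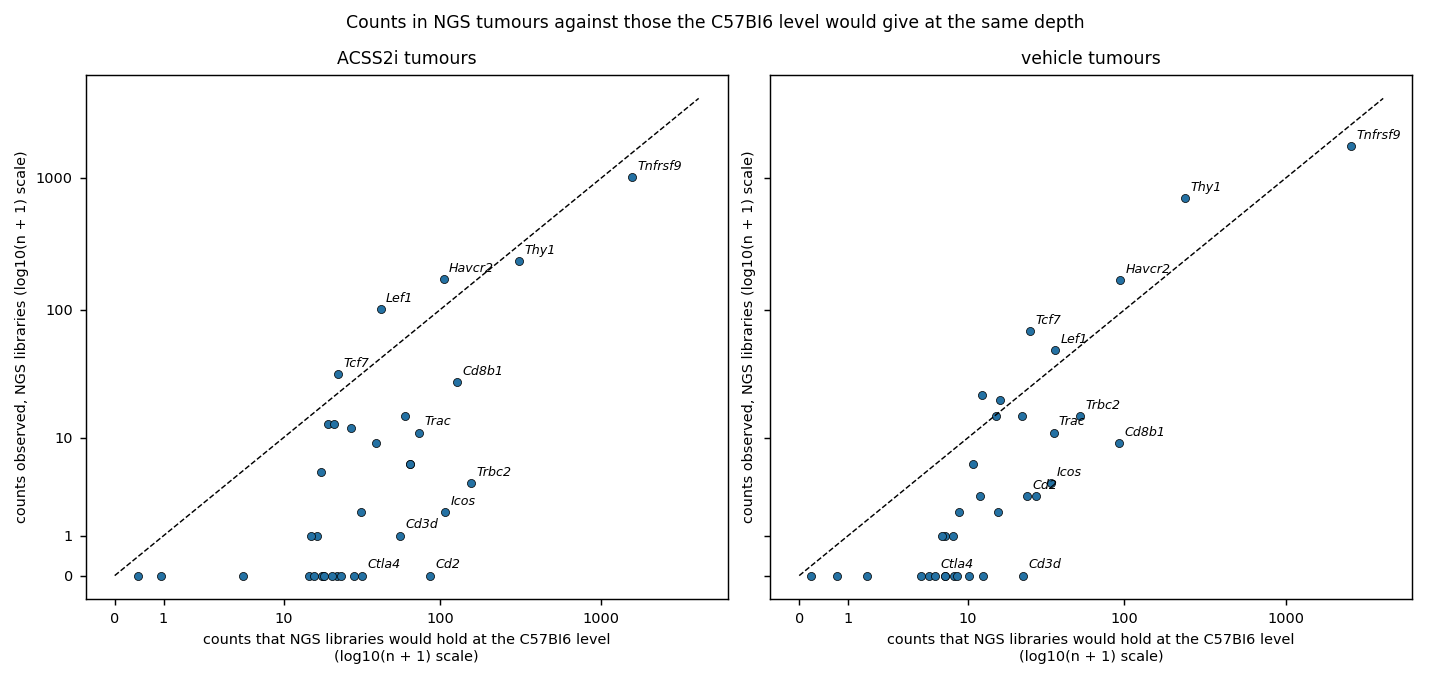
Counts of each of the 35 genes summed over the 3 NGS libraries of a treatment (y axes) against the counts those libraries would hold at the C57BI6 level of the same treatment (x axes), both on a log10(n + 1) scale, for ACSS2i (left) and vehicle (right). The dashed line marks equal levels. Cd3d, Cd2 and Ctla4 lie on or near 0 counts, while Thy1 and Tcf7 in vehicle tumours, Lef1 in ACSS2i tumours and Havcr2 in both lie above the line.

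A few receptor genes did have counts in NGS tumours. With ACSS2i, Trac had 551 counts in C57BI6 and 11 in NGS, and with vehicle it had 202 in C57BI6 and 11 in NGS. The log2 fold change of C57BI6 over NGS was 2.81 ± 0.66 with ACSS2i (adjusted p = 0.00371) and 1.84 ± 0.67 with vehicle (adjusted p = 0.0478). The vehicle call was lost in limma voom, with the replicate block and in 8 of the 14 fits that left out 1 library, those without any 1 of the 3 NGS vehicle libraries, C57BI6 vehicle replicate 1 or 3, or C57BI6 ACSS2i replicate 1, 2 or 4. Trbc2 had 4 counts with ACSS2i and 15 with vehicle in NGS, of which NGS vehicle replicate 1 held 12. Cd8b1 was higher in C57BI6 in both treatments. It had 954 counts with ACSS2i in C57BI6 and 28 in NGS (2.25 ± 0.36, adjusted p = 0.000205), and with vehicle 524 counts in C57BI6 and 9 in NGS, a ratio of 10.4 with an interval of 5.42 to 22.8 (adjusted p = 2.71e-05). Cd4 did not pass in either treatment, with 207 counts in C57BI6 and 12 in NGS under ACSS2i, and 70 in C57BI6 and 22 in NGS under vehicle.

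Of the 5 genes with 100 or more counts in NGS, 4 were lower in C57BI6 than in NGS in at least 1 treatment. Havcr2 was lower with ACSS2i (-0.58 ± 0.20, adjusted p = 0.0309) and with vehicle (-0.69 ± 0.20, adjusted p = 0.0165), and its groups did not overlap in either. Thy1 was lower with vehicle (-1.42 ± 0.27, adjusted p = 0.000966), as was Tcf7, at 1.53 to 2.34 CPM in C57BI6 and 3.23 to 6.89 CPM in NGS (-1.28 ± 0.39, adjusted p = 0.0207), and Lef1 was lower with ACSS2i (-1.22 ± 0.44, adjusted p = 0.0388). The Lef1 call was lost without NGS ACSS2i replicate 2, where the log2 fold change was -0.56, without C57BI6 ACSS2i replicate 1, 3 or 4, in limma voom, with the replicate block and in a fit of the ACSS2i libraries alone. The Tcf7 call was lost with the replicate block and without NGS vehicle replicate 1 or 3 or C57BI6 vehicle replicate 4. That of Havcr2 was lost without NGS vehicle replicate 2 in the vehicle tumours, and without NGS ACSS2i replicate 2 or 3 or C57BI6 ACSS2i replicate 2 or 3, in limma voom and without the filter on low counts in the treated ones. The Thy1 call held in all 21 alternatives. Tnfrsf9 was higher in C57BI6 in both treatments, at 0.76 ± 0.25 with ACSS2i (adjusted p = 0.0240) and 0.72 ± 0.25 with vehicle (adjusted p = 0.0345), with overlapping groups. The call with ACSS2i was lost without NGS ACSS2i replicate 2 or 3 or C57BI6 ACSS2i replicate 1. The call with vehicle was lost with the replicate block and without NGS vehicle replicate 2 or 3 or C57BI6 vehicle replicate 3 or 4. In NGS tumours it stood at 67.8 to 142 CPM with ACSS2i and 97.4 to 165 CPM with vehicle, where the 3 CD3 chains together had 1 count over the 6 libraries.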

How the data were processed

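Tumour RNA of 14 libraries was read with a 3' end kit, so a gene's count does not scale with its length. The authors deposited 1 table of whole-number read counts for 51789 genes, of which 193 carry no symbol. Per the submitters' processing notes they used RSEM 1.2.3, DESeq2 and the mm10 build. RSEM estimates need not be whole, so the deposited counts may have been rounded. The aligner, the annotation and the strand setting are not given in the sources used here. Counts were taken as deposited. One edgeR 4.0.16 quasi-likelihood model with the 4 groups was fitted to all 14 libraries, with TMM factors and edgeR's default filter on low counts, which left 17294 genes, and p-values were adjusted over them (Benjamini-Hochberg, threshold 0.05). Comparisons were ACSS2i over vehicle within each strain, the difference of these effects, and C57BI6 over NGS within each treatment. Within-strain comparisons share no libraries, but the comparisons between strains use the same libraries as those within. Errors are model standard errors of log2 fold changes, or SDs of CPM over libraries. Groups do not overlap where every library of one lies above every library of the other in CPM. Fitted fold changes are printed only where the libraries compared (between strains, those of NGS) held 10 or more counts and, for genes named in NGS, neither group had 3 or fewer (apart from the ranges over alternatives, where the counts are given), and otherwise counts with exact 95% intervals or a floor of 3 counts over the group. Depth and strain cannot be told apart.

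Alternatives were DESeq2 1.42.0 size factors or its own test, limma 3.58.1 voom with quality weights, no filter, 1 CPM in 3 or more libraries, a replicate block, only the libraries compared, each library left out, TMM-scaled CPM and other denominators in place of the CD3 chains. The genes, their roles and the other gene lists were chosen with earlier results of these data known. Values in every library are given for genes called in a treatment test and for the 3 with the smallest p in C57BI6 within each role. Of each other list, up to 4 with the smallest p are named, and some genes of those lists are not reported here. Positions are from GENCODE M21 (mm10). Computing used R 4.3.3 and Python 3.11.15, and the fit was tested on simulated data. No 2 libraries held identical values, and replicates differed by more than sampling noise (chi-square per degree of freedom 6.62 to 25.4).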

Additional observations from a re-analysis of the deposited data

Results flagged for a closer look

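Cd247, the zeta chain of the receptor complex, had 3.34 CPM in C57BI6 ACSS2i replicate 2, far above the other 3 treated libraries, with a gap of 0.903 of the group's range. Of 65 combinations of gene and group that were checked, 1 stood out in this way, where chance gives about 1 in 20.

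The estimates for Thy1 had opposite signs in the strains. By edgeR they were 0.67 in C57BI6 (adjusted p = 0.407) and -1.27 in NGS (adjusted p = 0.0431). Only the NGS estimate was called, and that call held in 3 of the 14 fits that left out 1 library. The effect in C57BI6 minus that in NGS was 1.95 on the log2 scale by edgeR (adjusted p = 0.141), with all 4 C57BI6 ACSS2i libraries above the vehicle libraries of that strain and all 3 NGS ACSS2i libraries below theirs.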

How the results depend on the processing

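In C57BI6 ACSS2i against vehicle, 54 of all genes were called by edgeR, against 332 by DESeq2, 429 by voom, 112 without the filter, 9 with the replicate block, 266 in the C57BI6 libraries alone and 15 to 122 leaving out 1 library. The T cell genes called higher were 0, against 9 by DESeq2, 17 by voom, 5 without the filter, 8 in the C57BI6 libraries alone and 0 to 3 leaving out 1 library. As counts chosen after seeing the data, 22 to 28 had an unadjusted p under 0.05 across the other settings and 18 to 28 leaving out 1 library. Leaving out 1 library, 21 to 28 did not overlap. This count cannot fall below the 21 of all libraries, since smaller groups separate more easily. In NGS, 466 of all genes were called, against 1552 by DESeq2, 27 by voom, 254 with the block, 9 in the NGS libraries alone and 118 to 1743 leaving out 1 library. The T cell genes called higher were 2 by DESeq2 and 0 to 1 leaving out 1 library, and those called lower were 0 by voom, 0 with the block, 0 in the NGS libraries alone and 0 to 2 leaving out 1 library. In the difference of effects 3 of all genes were called, against 293 by DESeq2, 0 by voom, 7 without the filter and 1 to 62 leaving out 1 library, with 1 T cell gene by DESeq2 and 0 to 1 leaving out 1 library. Between strains with vehicle, those higher were 6 by voom, 8 with the block, 11 in the vehicle libraries alone and 8 to 18 leaving out 1 library. With ACSS2i, those lower were 0 by voom, 1 without the filter, 1 with the block, 1 in the ACSS2i libraries alone and 0 to 2 leaving out 1 library. The cause of these shifts was not tested.

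Reversed signs arose mostly at low NGS counts. By voom these were Trac (-1.36), Lat (-0.81) and Tnfrsf4 (-0.33) in NGS ACSS2i against vehicle, Tnfrsf18 between strains with vehicle (0.81; 0.39 with the block) and Tcf7 with ACSS2i (0.12). Leaving out 1 library in NGS ACSS2i against vehicle, Trac ran from -0.92 to 1.00, Trbc2 from -2.91 to 0.0758, Lat from -1.57 to 0.98, Cd4 from -0.95 to 0.0691, Tnfrsf4 from -0.53 to 0.73, Tnfrsf18 from -7.18 to 1.22 and Eomes from -0.35 to 0.86. Without NGS ACSS2i replicate 1 the NGS ACSS2i tumours held 3 counts of Trac, 1 of Trbc2, 1 of Lat and 0 of Tnfrsf18, and without NGS vehicle replicate 1 the NGS vehicle tumours held 3 of Trbc2, 2 of Lat and 2 of Tnfrsf18, so the ends of those ranges depend on the prior count of the fit and measure no size. In the difference of effects Lat ran from -0.00585 to 2.54, Tnfrsf9 from -0.17 to 0.43, Havcr2 from -0.0269 to 0.24 and Eomes from -0.0803 to 1.11. Between strains with vehicle Tnfrsf18 ran from -0.58 to 2.49, Lef1 from -0.58 to 0.10 and Eomes from -0.24 to 0.95, and with ACSS2i Tcf7 ran from -0.78 to 0.31. The receptor complex, whose sum includes Trac, was at 0.23 with Trac as denominator in place of the CD3 chains.

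Replicate numbers were not taken as pairs, since libraries with the same number deviated together with correlations of -0.14 to 0.15 in C57BI6 and -0.00 to 0.09 in NGS, and 2 of 8 and 3 of 6 libraries correlated best with their own number. With the replicate block 0 T cell genes were called in C57BI6.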

Other observations

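Of the marker genes of 6 further cell types, 0 were called by edgeR in C57BI6 ACSS2i against vehicle. At an unadjusted p under 0.05, 1 was lower (2.91% of all genes) and 2 were higher (5.05%). Tested were 4 neutrophil, 4 dendritic cell, 7 fibroblast, 5 endothelial, 4 tumour epithelium and 4 skin markers. The 5 neutrophil markers summed to 47.9 to 71.2 CPM in ACSS2i tumours and 60.7 to 105 CPM in vehicle tumours, and S100a8, a calcium binding protein of neutrophils, was at -0.88 ± 0.33 (adjusted p = 0.419). The 6 dendritic cell markers summed to 49.8 to 76.0 CPM in ACSS2i tumours and 40.8 to 56.2 CPM in vehicle tumours, with Itgax (CD11c) at 0.90 ± 0.33 (adjusted p = 0.407). The 7 fibroblast markers summed to 5571 to 7027 CPM in ACSS2i tumours and 5136 to 6476 CPM in vehicle tumours. The 5 endothelial markers averaged 119 ± 27.1 CPM in ACSS2i tumours and 109.7 ± 5.53 CPM in vehicle tumours (SD, n = 4 each). The 4 tumour epithelium markers summed to 345 to 429 CPM in ACSS2i tumours and 327 to 381 CPM in vehicle tumours. The 4 skin markers ran from 4.82 to 6.20 CPM in ACSS2i tumours and 4.31 to 6.83 CPM in vehicle tumours.

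Skeletal muscle markers varied far more between libraries than between treatments. Their sum ran from 2.17 to 2184 CPM in C57BI6 ACSS2i tumours and 1.02 to 765 CPM in C57BI6 vehicle tumours, and from 8.43 to 486 CPM in NGS ACSS2i tumours and 208 to 5185 CPM in NGS vehicle tumours. Among neutrophil markers in NGS tumours, Csf3r, the receptor for granulocyte colony stimulating factor, was called lower with ACSS2i by edgeR, at 2 counts over the NGS ACSS2i tumours and 23 over the NGS vehicle tumours (adjusted p = 0.0238). The call was lost in limma voom, with the replicate block, and without NGS ACSS2i replicate 2 or 3 or NGS vehicle replicate 1.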
